A study of Mus musculus with 18 samples.

Results

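Whole brains of female mice that carry the label ERalphaKO, a knockout of Esr1, which encodes estrogen receptor alpha, were compared with those of wild type females, across all genes measured. The members are the 3 female arrays of each genotype, 6 of the 18 arrays of the series, taken by their labels. All mice were C57BL/6 and 8 weeks old, and the labels give no hormone treatment, no cycle stage and no description of the knockout allele. The other 12 arrays are ERalphaKO and wild type males and ERbetaKO females and males, 3 of each, the last 2 groups labelled as knockouts of estrogen receptor beta (Esr2). Frozen whole brains gave total RNA that was labelled with biotin and hybridised to Affymetrix mouse expression arrays. Samples of a group are numbered, but nothing says that they are separate animals, and p-values then reflect only the spread among these arrays, which may be technical.

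Estrogen receptor alpha is a nuclear receptor that, once it binds estradiol, attaches to estrogen response elements in DNA or to other bound transcription factors and changes transcription. In the brain it is concentrated in hypothalamic, preoptic and amygdalar nuclei that govern reproduction, feeding and maternal behaviour, so a whole brain dilutes it. Immediate early genes such as Fos and the Egr and Nr4a genes are switched on within minutes of neuronal firing or stress, by kinases that act on factors already bound to their promoters. Their products are transcription factors that act on later genes.

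3 promoters are shown because their genes, Fos, Dusp1 and Hspa1b, rose in the ERalphaKO-labelled females and have well known short response elements. Each sequence is the RefSeq promoter of build GRCm38.p6, from 250 bases before to 50 after the annotated start, on the strand of the gene. Capitals in Fos and Dusp1 mark TGACG, the core of the cyclic AMP response element, and TGACGTCA, its full form. Capitals in Hspa1b mark GAANNTTC, a pair of inverted heat shock units. The Fos window is chr12:85473640-85473939 (+), that of Dusp1 chr17:26508423-26508722 (-) and that of Hspa1b chr17:34959189-34959488 (-).
Fos: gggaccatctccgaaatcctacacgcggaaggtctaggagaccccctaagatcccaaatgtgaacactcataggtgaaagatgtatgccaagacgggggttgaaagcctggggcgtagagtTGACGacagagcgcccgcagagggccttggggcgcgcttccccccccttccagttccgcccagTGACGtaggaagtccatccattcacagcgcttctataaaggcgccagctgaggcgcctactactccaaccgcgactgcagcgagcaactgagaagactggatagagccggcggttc
Dusp1: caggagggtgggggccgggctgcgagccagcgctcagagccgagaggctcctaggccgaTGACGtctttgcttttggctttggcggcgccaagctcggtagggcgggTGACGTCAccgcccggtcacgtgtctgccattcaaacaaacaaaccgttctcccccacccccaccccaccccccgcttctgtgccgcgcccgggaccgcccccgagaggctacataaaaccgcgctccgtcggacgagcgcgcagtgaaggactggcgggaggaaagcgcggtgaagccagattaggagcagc
Hspa1b: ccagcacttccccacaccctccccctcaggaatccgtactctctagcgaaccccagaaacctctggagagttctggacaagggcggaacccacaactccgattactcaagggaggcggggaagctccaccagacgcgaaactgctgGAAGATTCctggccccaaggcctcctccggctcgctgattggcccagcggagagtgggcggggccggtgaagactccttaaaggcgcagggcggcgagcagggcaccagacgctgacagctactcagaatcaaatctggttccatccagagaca
Both strands were searched. The Fos window held TGACG at -129 and -66 from the start. The Dusp1 window held it at -191, -143 and -140, and the last 2 are the overlapping strands of the single full element. The Hspa1b window held GAANNTTC at -104.

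The same letters were counted in every promoter of that table. TGACG was found in 20.8% of 32851 promoters and TGACGTCA in 1.79%. The pair GAANNTTC was found in 7.86%, and TTCNNGAA, the pair in the other orientation, in 8.52%. Of the 47 genes called in this comparison, 33 had a promoter entry. Among those, 14 held TGACG, Dusp1 and Tra2a held TGACGTCA, 1 (Hspa1b) held GAANNTTC and 5 held TTCNNGAA. The full palindromic estrogen response element was found in 23 of all promoters (0.07%) and in 0 of the 33. The serum response CArG box was found in 1.63% of all and in 0 of the 33. Elements outside the promoter window, for Fos or any other gene, are not counted. The shares cover every promoter of the table and not only those of the 13072 genes tested. The 33 are thus set beside an unlike group, and whether they hold a motif more often was not tested. A match is a description of the letters in this window and not a binding site.

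The targeted gene was examined first, in every array of the groups compared here. 3 probe sets measured Esr1, each dimly. The one with the highest mean over the 18 arrays, which stands for the gene below, had signals of 93.3, 162 and 185 in wild type and 140, 136 and 140 in ERalphaKO-labelled females. These groups overlapped, and the log2 difference was -0.03 ± 0.19 (SE, limma unadjusted p = 0.878; exact permutation p = 1.0, n = 3 each, where 0.1 is the smallest p possible). Another Esr1 probe set read 140, 99.0 and 185 in wild type against 191, 196 and 178, a difference of 0.32 ± 0.26 (exact permutation p = 0.2), and was the brighter of the pair on these 6 arrays. The last read 42.4, 29.1 and 55.5 against 41.5, 48.1 and 50.8, a difference of 0.07 ± 0.16 (exact permutation p = 0.7). No Esr1 probe set was thus lower beyond its spread in the females labelled as knockouts. In males the first read 171, 132.5 and 112.0 in wild type and 127, 145 and 86.8 in ERalphaKO-labelled mice, which overlapped. The other 2 lay wholly above wild type in the ERalphaKO-labelled males, at 318, 243 and 252 against 148, 69.9 and 205 and at 86.8, 76.4 and 86.6 against 46.7, 10.2 and 47.9, opposite to the loss that the label names. Probes that lie outside the disruption check nothing, and where these probes lie relative to it is not known here. The groups are therefore called ERalphaKO-labelled, and every direction given below rests on the labels. Esr2 lay near background, at 28.2, 28.7 and 22.5 in wild type and 78.2, 25.9 and 25.4 in ERalphaKO-labelled females (difference 0.21 ± 0.23, exact permutation p = 0.6). In the ERbetaKO-labelled females, which carry the label of an Esr2 knockout, it read 242.5, 242.7 and 160.4, above all 6 of these arrays and against that label.

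Some arrays stand apart from the others, and this bears on all results below. Pcp2, a gene of cerebellar Purkinje cells, had signals of 6152, 5560 and 117 in wild type and 4285, 245 and 3715 in ERalphaKO-labelled females. Cerebellar granule cell markers had mean log2 levels of 11.26, 11.08 and 8.55 in wild type and 10.72, 8.78 and 10.85 in ERalphaKO-labelled females. Wild type replicate 3 and ERalphaKO replicate 2 thus had little signal of Purkinje cells and less of granule cells, both of the cerebellum. Of the 6 arrays, wild type replicate 1 alone had strong pituitary hormone signals, with growth hormone (Gh) at 19900 against 68.6 and 67.0 in the other wild type females and 111 to 171 in the ERalphaKO-labelled ones. The 3′ over 5′ ratio of the Actb control, which is higher where RNA is more degraded or less completely copied, was 1.17, 1.19 and 1.22 in wild type and 1.29, 1.34 and 1.37 in ERalphaKO-labelled females (exact permutation p = 0.1, the smallest possible). That of Gapdh was 0.783 ± 0.0202 (SD) against 0.760 ± 0.0190 (exact permutation p = 0.3), and for pyruvate carboxylase it was 2.65 ± 0.885 against 2.42 ± 0.465 (exact permutation p = 0.8). The descriptions of the ERalphaKO arrays share a numeric suffix that those of wild type lack, so a difference in handling and genotype cannot be told apart. Array correlations were 0.962 to 0.979 within groups and 0.952 to 0.973 between groups, over the 6 female arrays compared here.

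In the ERalphaKO-labelled females 47 of 13072 genes tested passed the threshold (0.36%; limma, Benjamini-Hochberg adjusted p under 0.05), 36 of them higher (0.275%) and 11 lower (0.0841%). The largest rises were of Erdr1, Mid1, Gm13306 and Fos, and the largest fall was of 1700052K11Rik. The median size of the 47 differences was 0.67 on the log2 scale, and 8 exceeded 2-fold, 7 up and 1 down. For all 47 the 3 knockout values lay wholly outside the 3 wild type values, as they did for 20.6% of all genes tested. The median difference of all genes was -0.02, and 46.2% of them were above 0. At an unadjusted p under 0.05, 1895 genes (14.5%) differed, 824 higher (6.3%) and 1071 lower (8.19%).

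**Figure D1:**
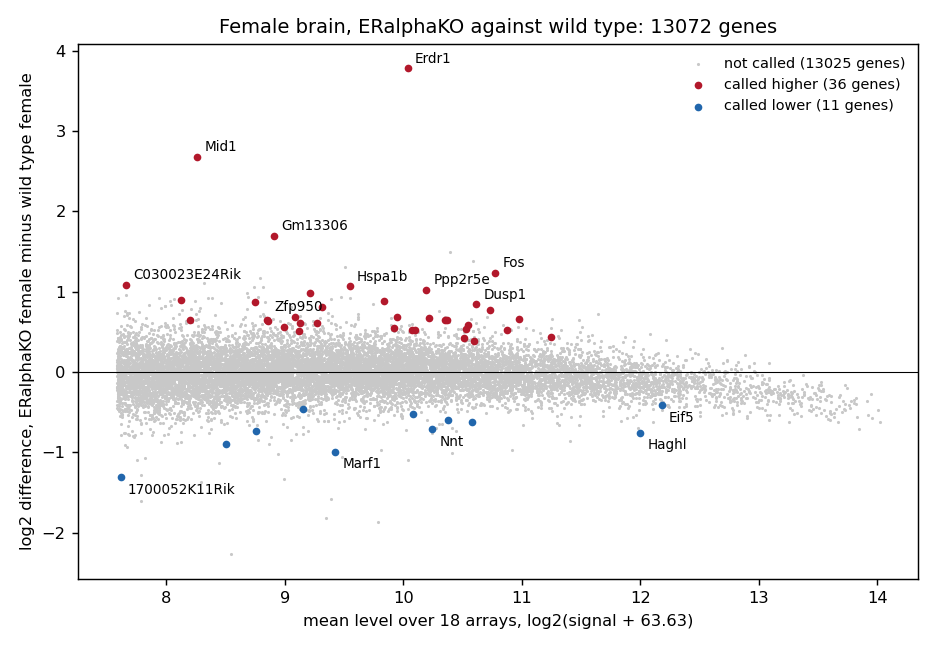
Log2 difference between ERalphaKO-labelled and wild type females (y axis) against the mean level over the 18 arrays (x axis, log2 of signal plus 63.63) for the 13072 genes tested, 1 point per gene. The 36 genes called higher are red and the 11 called lower blue, and Erdr1, at 3.78, lies farthest from 0.

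How many genes passed depended on single arrays. Without wild type replicate 1, 2 or 3 the count was 21, 2 and 1, and 16, 2 and 1 of the 47 were among them. Without ERalphaKO replicate 1, 2 or 3 it was 20, 7 and 11, with 17, 6 and 6 of the 47 among them. Of the 12 arrays of the other 4 groups, which share the estimate of the spread, leaving out replicate 1 of the ERalphaKO males gave 21 calls and replicate 2 of the ERbetaKO males 26, and the others gave 36 to 56. Erdr1 passed each time (highest adjusted p 1.70e-05). Fos passed in 5 of the 6 refits and missed without wild type replicate 3 (adjusted p = 0.0541). Mid1, Nnt and 1700052K11Rik missed without wild type replicate 2 (adjusted p = 0.0660, 0.0569 and 0.0627) and replicate 3 (0.0541 each), and Marf1 passed in 3 of the 6. Of the other genes, 4 passed in 2 refits, 14 in 1 and 23 in 0. All 47 differences kept their sign in the 6 refits. Since the 2 groups did not overlap for any of the 47, leaving out 1 array could not change a sign.

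The sizes moved less than the calls. With the arrays of low Pcp2 signal left out, 4 genes passed, Erdr1 and Gm13306 of the 47 among them and also Wdfy1 (adjusted p = 0.0407). The median difference was then 0.64 for the 36 genes called higher and -0.65 for the 11 called lower, where all arrays gave 0.66 and -0.71. With the Actb ratio in the model 12 genes passed, at medians of 0.64 and -0.65. With the pituitary score as a covariate 62 passed, at medians of 0.68 and -0.74. Fos was at 1.23 ± 0.198 (adjusted p = 0.111) without the low Pcp2 arrays and passed with the Actb ratio in the model (adjusted p = 0.00869).

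Erdr1, a gene of the pseudoautosomal region that is linked to cell growth and stress, showed the largest difference. Its signals were 414, 361 and 269 in wild type and 8223, 3588 and 5713 in ERalphaKO-labelled females. Every knockout value was thus far above every wild type value, a log2 difference of 3.78 ± 0.25 (limma adjusted p = 8.15e-07), or 13.7-fold on that scale. A second Erdr1 probe set of low signal had a difference of 1.12 ± 0.27 (limma unadjusted p = 0.000743).

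Mid1, a microtubule-associated ubiquitin ligase gene that spans the pseudoautosomal boundary of the mouse X chromosome, rose with it. Its signals were 118, 111 and 109 in wild type and 1644, 669 and 1096 in ERalphaKO-labelled females, a difference of 2.68 ± 0.39 (limma adjusted p = 0.00906). The order of the 3 knockout arrays was the same for Erdr1 and Mid1, with replicate 1 highest and replicate 2 lowest. The 2 other Mid1 probe sets, both weak, had differences of -0.62 ± 0.24 (opposite in direction, unadjusted p = 0.0189) and 0.21 ± 0.28.

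Nnt, the mitochondrial transhydrogenase that supplies NADPH, fell. Its signals were 1394, 1497 and 1500 in wild type and 808, 895 and 901 in ERalphaKO-labelled females, without overlap. The difference was -0.71 ± 0.10 (limma adjusted p = 0.00571), and the other Nnt probe set above the filter gave -0.68 ± 0.09. Nnt, Erdr1 and Mid1 are 3 of 9 tested genes on a list for which inbred mouse strains are known to differ. Among the 9, 2 rose, 1 fell and 6 did not pass, with a median of -0.13. Over all genes tested 0.275% rose and 0.0841% fell. The list was chosen with earlier results of these data known, so its calls are no independent support.

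Wdfy1, on the same list, an adaptor for Toll-like receptors in endosomes, had signals of 883, 875 and 788 in wild type and 316, 265 and 314 in ERalphaKO-labelled females. The groups did not overlap, at a difference of -1.33 ± 0.33 that missed the threshold (limma adjusted p = 0.0763). Gabra2, a GABA-A receptor subunit, was at -0.73 ± 0.19 (adjusted p = 0.0903), also without overlap. Crb1, Cyfip2, Glo1 and Ide had differences of -0.24, -0.07, -0.13 and -0.08, and none of these passed. The labels give C57BL/6 for all groups, and whether the lines differ in substrain or in remaining donor strain sequence was not tested.

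Genes near Esr1 were examined because a knockout line can carry donor strain sequence around the targeted gene. Among the 100 annotated genes to each side of Esr1 on chromosome 10, 43 were tested, of which 0 passed in limma and 5 had an unadjusted p under 0.05. Over all genes tested 0.36% passed and 14.5% had such a p, so these counts are near the general rate. Their median difference was 0.01 and their smallest adjusted p was 0.0763. By chromosome, the calls were most numerous on 17, with 6 of 596 genes tested (1.01%), and on 12 and 4, with 5 each of 470 (1.06%) and 792 (0.631%). X held 4 of 429 (0.932%), Erdr1, Mid1, C030023E24Rik and Vamp7.

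**Figure D2:**
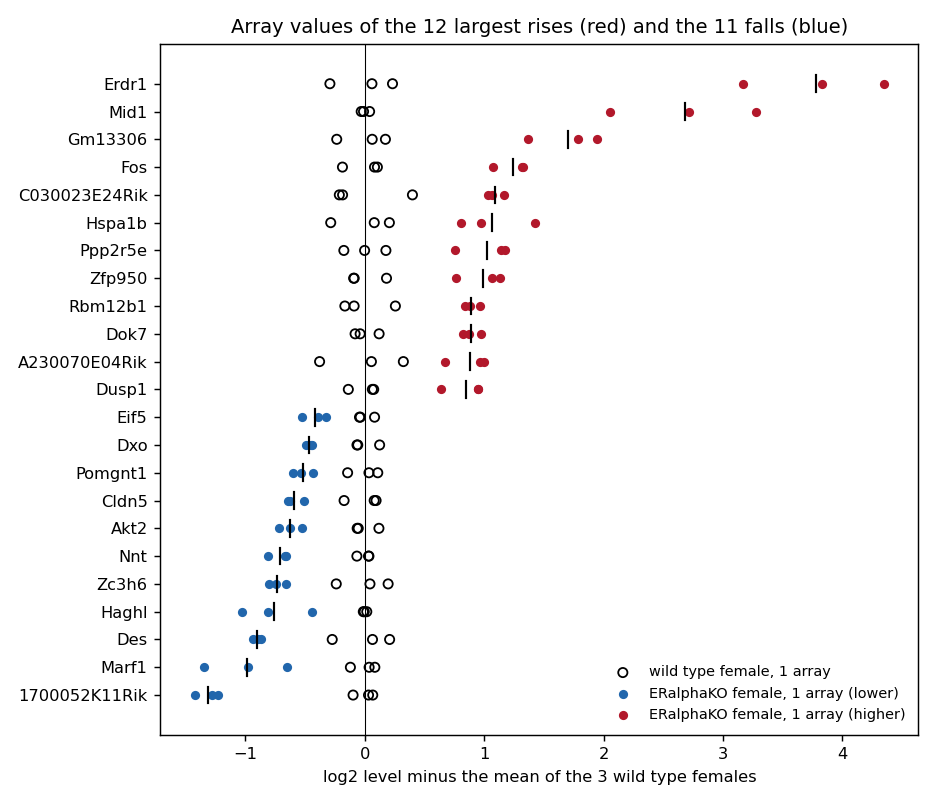
Log2 level on each of the 6 female arrays minus the mean of the 3 wild type females (x axis) for the 12 largest rises and the 11 falls, with 1 point per array and a bar at the mean of the ERalphaKO-labelled arrays. Open points are wild type, red and blue points ERalphaKO-labelled, and for each of these 23 genes the open and filled points do not overlap.

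Fos, the transcription factor most used as a mark of recent neuronal activity, rose in the ERalphaKO-labelled females. Its signals were 888, 872 and 713 in wild type and 2140, 1797 and 2152 in ERalphaKO-labelled females. Every knockout value was above every wild type value, and the difference was 1.24 ± 0.17 (limma adjusted p = 0.00571), or 2.36-fold. Dusp1, a phosphatase that switches off MAP kinases and is itself induced by stress and activity, rose from 987, 995 and 850 to 1874, 1503 and 1872. Its difference was 0.84 ± 0.15 (limma adjusted p = 0.0224). The promoters of both are shown above with their TGACG matches.

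The other activity-induced factors leaned the same way without passing. Of 6 tested members of the Fos and Jun family, 1 (Fos) rose, 0 fell and 5 did not pass, with a median of 0.60. Over all genes tested 0.275% rose. Fosb, a partner of Jun proteins, had 212, 222 and 273 in wild type and 559, 565 and 404 in ERalphaKO-labelled females, a difference of 0.93 ± 0.30 (limma adjusted p = 0.161). Those groups did not overlap. Junb was at 0.65, Fosl2 at 0.55, Jun at -0.22 and Jund at -0.34, and Jund did not overlap either, in the opposite direction.

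Of 8 Egr, Nr4a and Npas4 factors, 0 passed in limma, 4 had an unadjusted p under 0.05 and all 8 differences were above 0, with a median of 0.52. Npas4, a factor that responds to calcium entry in neurons, had 70.6, 102 and 131 in wild type and 318, 315 and 136 in ERalphaKO-labelled females (0.91 ± 0.31, limma adjusted p = 0.185). Knockout replicate 3 thus lay just above the highest wild type array. Egr4 was at 0.66, Egr2 at 0.62, Nr4a1 at 0.55, Nr4a3 at 0.50, Nr4a2 at 0.47, Egr3 at 0.23 and Egr1 at 0.12. Nr4a3, an orphan nuclear receptor, was at 1198, 980 and 1059 in wild type against 1734, 1490 and 1426, again without overlap.

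Over both groups together, 12 of 14 factors were above 0, where 46.2% of all genes were, and 7 had an unadjusted p under 0.05 upward, where 6.3% of all genes did. 4 of the 14 lay wholly above wild type, a position 9.25% of all genes took. Fos is counted in each of these tallies, and the 14 were read on the same 6 arrays, so they are not independent. The lists were chosen with earlier results of these data known, so these counts are no independent support. The median of the 14 was 0.55, and 0.38 to 0.74 when each array was left out in turn. ERalphaKO replicate 3 gave the lowest of the 3 knockout values for 10 of the 14, Fos not among them. Without the low Pcp2 arrays the median was 0.60 and 0 of the 14 passed in limma. With the cerebellar score in the model it was 0.50 and 3 passed, Fos, Fosb and Npas4 (limma adjusted p = 0.00299, 0.0304 and 0.0483).

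Activity-induced effectors are the products through which such firing alters synapses. Of 13 tested, 0 passed in limma, 1 higher and 1 lower had an unadjusted p under 0.05, and the median was -0.11, or -0.26 to 0.10 when each array was left out. Their mean log2 level was 10.46, 10.26 and 10.65 in wild type and 10.68, 10.73 and 10.06 in ERalphaKO-labelled females, so replicates 1 and 2 lay above all wild type arrays and replicate 3 below them all. Arc, which drives removal of AMPA receptors from synapses, had 652, 528 and 611 in wild type and 2509, 2667 and 664 in ERalphaKO-labelled females. Replicates 1 and 2 were thus several times wild type while replicate 3 lay just above it, and the difference was 1.39 ± 0.44 (limma adjusted p = 0.154). It is named outside the rule for named genes, after its values were seen. Of 14 Dusp and other MAP kinase feedback genes, 1 (Dusp1) rose, 0 fell and 13 did not pass, with a median of 0.15 (0.06 to 0.26 when each array was left out). Of 16 genes induced by growth signals, 0 passed in limma, 15 were above 0, 6 had an unadjusted p under 0.05 upward and the median was 0.30. Over all genes tested 0.275% rose, 46.2% were above 0 and 6.3% had such a p upward. The members of each list were read on the same arrays and are not independent.

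**Figure D3:**
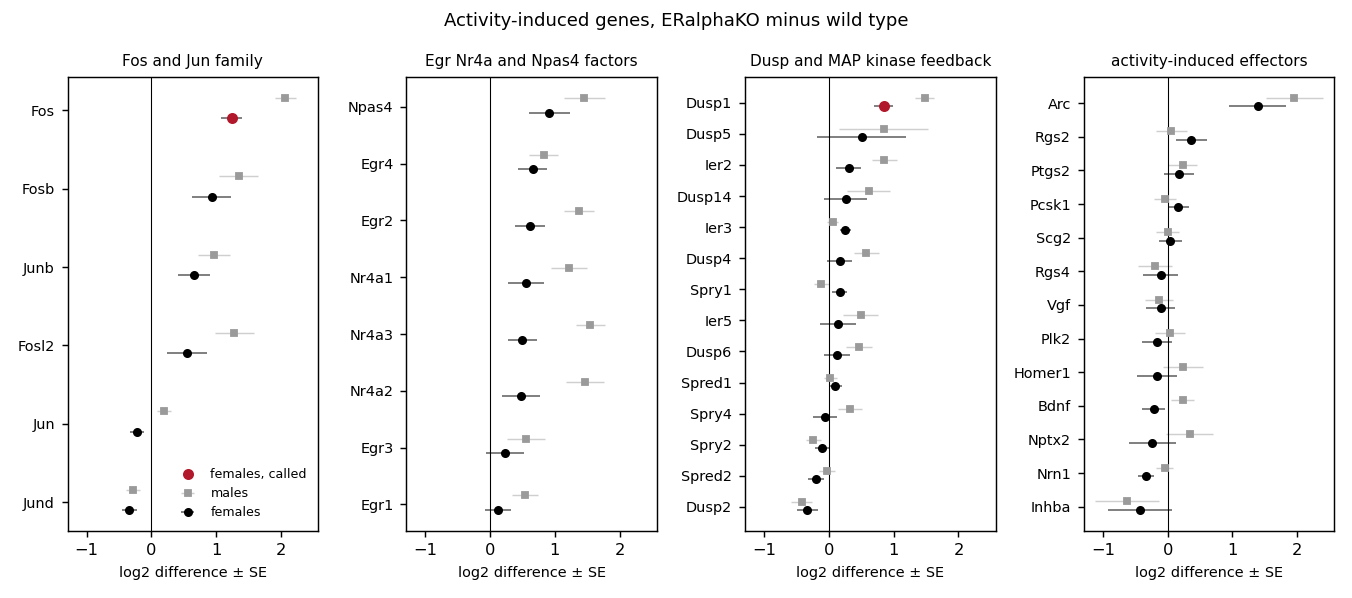
Log2 difference between ERalphaKO-labelled and wild type brains (x axis, ± SE) for members of 4 lists of activity-induced genes, with black points for females, grey squares for males and red points for the female differences that passed. Fos and Dusp1 are the only red points, and for all 14 factors in the left pair of panels the square lies to the right of the point.

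Hspa1b, an inducible Hsp70 chaperone gene, rose as well. Its signals were 448, 595 and 655 in wild type and 1024, 1158 and 1611 in ERalphaKO-labelled females, a difference of 1.07 ± 0.18 (limma adjusted p = 0.0224). The groups did not overlap. The 2 other probe sets annotated to it gave 1.12 ± 0.16 and 0.84 ± 0.15, and since Hspa1a is nearly identical in sequence the signal may come from both genes. Of 21 chaperone genes, 1 (Hspa1b) rose, 0 fell and 20 did not pass, and the median was 0.00. Over all genes tested 0.275% rose. 6 of the 21 had an unadjusted p under 0.05 upward and 2 downward, where 6.3% and 8.19% of all genes tested did.

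Further genes were among the 12 largest rises. Gm13306, a predicted gene in a cluster of near-identical copies, went from 179, 161 and 119 to 676, 491 and 765, a difference of 1.70 ± 0.33 (limma adjusted p = 0.0332). C030023E24Rik went from 134, 65.4 and 67.9 to 250, 242 and 273. Ppp2r5e, a regulatory subunit of protein phosphatase 2A, went from 1006, 882 and 774 to 1537, 2072 and 2024, a difference of 1.02 ± 0.16. Its 4 other probe sets, of similar signal or weaker, gave -0.11 to 0.22, so the rise was seen by 1 of 5 probe sets.

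Dok7, the adaptor that activates the kinase MuSK at the neuromuscular junction, went from 623, 644 and 726 to 1218, 1360 and 1265 (0.89 ± 0.17, limma adjusted p = 0.0332). Its other probe set went the opposite way, at -0.89 ± 0.29 (unadjusted p = 0.00734), and the mean of its probe sets gave a difference of -0.00. The direction of Dok7 thus depends on the probe set. Zfp950, a zinc finger gene, rose by 0.99 ± 0.16, Rbm12b1, an RNA-binding protein gene, by 0.89 ± 0.16 and A230070E04Rik by 0.88 ± 0.18. The other probe sets of Zfp950 gave -0.33 ± 0.23 and 0.09 ± 0.15, and those of A230070E04Rik -0.02 ± 0.16 and 0.01 ± 0.29. That of Rbm12b1 gave 0.30 ± 0.28.

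The other 24 rises lay between 0.39 and 0.81, and they are named after their values were seen so that every call is accounted for. Clk1, a kinase of splicing factors, rose by 0.52 ± 0.11 and Tra2a, a splicing regulator, by 0.52 ± 0.09. They were 2 of 36 splicing factors tested, where 0 fell, 34 did not pass and the median was 0.01. Over all genes tested 0.275% rose and 0.0841% fell. At a limma unadjusted p under 0.05, 7 of the 36 were higher and 5 lower, where 6.3% and 8.19% of all genes were. Ythdf3, a reader of methylated adenosine in mRNA, rose by 0.43, Ncbp2, the small subunit of the nuclear cap-binding complex, by 0.39, Helz, an RNA helicase, by 0.58 and Ints4, a subunit of the Integrator complex, by 0.56. Snhg14, the long noncoding transcript of the imprinted Ube3a region, rose from 1394, 1128 and 1332 to 2203, 2021 and 2524, or by 0.78 ± 0.15. No overlap was seen for any of these 7. Other probe sets of Ncbp2 gave -0.04 and 0.08, of Ythdf3 -0.04 and 0.45 and of Snhg14 0.17 and 0.35. Those of Tra2a ran from -0.56 to 0.88 and those of Helz from -0.04 to 0.27.

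Pfkfb3, which makes the activator of glycolytic phosphofructokinase, went from 446, 614 and 438 to 931, 828 and 978 (0.81 ± 0.16, limma adjusted p = 0.0380). Tubb2b, a neuronal beta tubulin, rose by 0.67, Tube1, epsilon tubulin, by 0.68 and Lrrtm2, a postsynaptic adhesion protein that binds neurexins, by 0.65. Vamp7, a vesicle SNARE protein, rose by 0.54 and Ciao2a, of cytosolic iron-sulfur protein assembly, by 0.64. Arid4a and Pygo1, of chromatin and Wnt signalling, each rose by 0.65. The other Arid4a probe sets gave -0.30 ± 0.18 and -0.15 ± 0.24, opposite in direction. That of Pfkfb3 gave 0.065 and those of Lrrtm2 0.09 and 0.18. Those of Tube1, Vamp7 and Ciao2a gave 0.10 to 0.21. Cdkl4, 4932438A13Rik, Zfp942, Zmym1, Tmem245, Thyn1, Rspry1, Cdca4 and 1810013L24Rik rose by 0.44 to 0.68. The other Zfp942 probe sets, both weak, gave -0.35 and -0.05, and those of Cdca4 -0.70 and 0.43. Further probe sets of the rest of these genes ran from -0.12 to 0.56.

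The 11 falls held no activity-induced gene. 1700052K11Rik, an uncharacterised transcript, fell from 192, 216 and 223 to 48.9, 38.3 and 53.1, a difference of -1.31 ± 0.19 (limma adjusted p = 0.00772). The knockout values lay below the pseudocount of 63.63, so this size is understated. Cldn5, the tight junction protein of brain capillaries, fell from 1448, 1757 and 1737 to 1025, 1044 and 1135, a difference of -0.59 ± 0.10 (limma adjusted p = 0.0224). In whole brain, fewer cells of a type and less RNA per cell cannot be told apart. Of 14 endothelial and mural markers Cldn5 alone passed, 7 lay above 0 and 7 below, and the median was 0.01. Over all genes tested 0.0841% fell. The other 13 ran from Flt1, a VEGF receptor, at -0.24 to Tagln, a smooth muscle protein, at 0.43. Slc2a1, the glucose transporter of brain capillaries, lay wholly above wild type at 0.41 ± 0.16 (unadjusted p = 0.0191, limma adjusted p = 0.241), and Pecam1 and Cdh5, which mark endothelium, were at -0.08 and -0.12.

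Des, the intermediate filament desmin of muscle cells, fell from 372, 418 and 281 to 164, 161 and 155, a difference of -0.90 ± 0.16. Its knockout values lay close together and all below wild type. Marf1, an RNA-binding regulator of mRNA stability, fell from 765, 860 and 891 to 395, 291 and 510 (-0.99 ± 0.16, limma adjusted p = 0.0151). Its 2 other probe sets, of weaker signal, gave -0.03 ± 0.16 and -0.02 ± 0.18, so the fall was seen by 1 of 3. Haghl, related to glyoxalase II, fell from 4991, 4964 and 5066 to 3673, 2429 and 2826 (-0.76 ± 0.15). Both groups were again apart. Akt2, a kinase of insulin signalling, fell by 0.62, Zc3h6, a zinc finger gene, by 0.73, Pomgnt1, which glycosylates dystroglycan, by 0.52, Dxo, an enzyme that removes faulty mRNA caps, by 0.46 and Eif5, a translation initiation factor, by 0.41. The 4 other Eif5 probe sets gave -0.14 to 0.21, 2 of them above 0, and for none of these was the unadjusted p under 0.05. Other probe sets of Akt2 gave -0.21 and 0.02, and those of Haghl -0.23 to -0.18. Weak ones of Zc3h6 and Des each gave 0.15.

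Other probe sets bore on these calls unevenly. 14 of the 47 genes were read by a single probe set. The other 33 had 70 further probe sets, of which 47 had the same sign, differences near 0 such as those of Marf1 included, 12 the same sign with an unadjusted p under 0.05 and 3 the opposite sign at that level, those of Mid1, Dok7 and Cdca4. For 9 of the 33 genes another probe set passed an unadjusted p of 0.05 in the same direction, among them Erdr1, Nnt and Hspa1b.

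Estrogen-responsive genes were compared because their transcription is reported to follow the receptor. Of 21 tested classical members, 0 passed in limma, 0 had an unadjusted p under 0.05 and the median was -0.05. Pgr, the progesterone receptor that estradiol induces in hypothalamus and uterus, had 764, 889 and 1109 in wild type and 915, 1057 and 996 in ERalphaKO-labelled females, a difference of 0.11 ± 0.16. Greb1 was at -0.17 ± 0.28, Oxtr, the oxytocin receptor, at -0.12 ± 0.27 and Nrip1, a receptor corepressor, at -0.04 ± 0.10. These groups overlapped. Ltf, Nos1 and Ctsd lay wholly below wild type, at -0.29, -0.20 and -0.13, and Avp, vasopressin, wholly above, at 0.93 ± 0.83, and none of these 4 passed. Over all genes tested 11.3% lay wholly below and 9.25% wholly above, so 3 and 1 of 21 are near the general rate. Igfbp4, Bcl2, Tff1, Ccnd1 and Chat were at -0.33, -0.27, -0.26, -0.11 and -0.05, and Igf1, Cav1, Xbp1 and Crh at 0.04, 0.13, 0.15 and 0.27.

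Prl, prolactin, had 14203, 96.4 and 25.4 in wild type and 101, 19.7 and 68.6 in ERalphaKO-labelled females, so its difference of -2.27 ± 1.94 rests on wild type replicate 1, the array with strong pituitary hormone signals. Of 8 steroid and orphan receptors of the list, 0 passed in limma, 0 had an unadjusted p under 0.05 and the median was -0.01. The glucocorticoid receptor Nr3c1 was at 0.14 ± 0.08, the mineralocorticoid receptor Nr3c2 at -0.11 ± 0.19 and Gper1, a membrane estrogen receptor, at -0.16 ± 0.14. Esrra, Esrrb and Esrrg, the estrogen-related receptors, were at 0.01, -0.24 and 0.26.

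Of 15 hypothalamic neuropeptides, 0 passed in limma and 0 had an unadjusted p under 0.05, and the median was 0.27. Hcrt, orexin, was at 430, 162 and 357 in wild type and 616, 474 and 938 in ERalphaKO-labelled females, a difference of 0.99 ± 0.52 without overlap (limma adjusted p = 0.403). Wild type replicate 2 was the lowest of the 6 for Hcrt, and also for Avp, Pmch and Nts, which were at 0.93, 0.93 and 0.57. Oxt, oxytocin, was at 0.37 ± 0.38, Gal at 0.46, Crh at 0.27, Tac2 at 0.14 and Cartpt at 0.06. Tac1 was at 0.56, without overlap, so that with Hcrt and Avp 3 of 15 lay wholly above wild type. Over all genes tested 9.25% did. The 5 below 0 were Pomc at -0.61, Npy at -0.35, Vip at -0.30, Sst at -0.14 and Pdyn at -0.09.

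Lists of abundant transcripts were slightly lower, and this moved with the scaling. Of 34 oxidative phosphorylation genes 29 were below 0 and 0 passed in limma, with a median of -0.17. At an unadjusted p under 0.05, 10 of them were lower and 1 higher. The medians were -0.16 for 25 ribosomal protein genes, -0.20 for 18 synaptic vesicle genes and -0.24 for 15 astrocyte markers, and 0 of each passed. Of these, 9, 5 and 3 had an unadjusted p under 0.05 downward, where 8.19% of all genes tested did. After quantile normalization the 4 medians were -0.01, 0.00, -0.05 and -0.09. The 10% of genes with the highest level had a median of -0.14 as deposited and -0.02 after quantile normalization, and the brightest signal per array was 24160, 19260 and 24070 in wild type against 15620, 14270 and 12720 in ERalphaKO-labelled females. Microglia markers were at -0.17, and -0.16 after quantile normalization, with 0 of 14 passing in limma and 2 at an unadjusted p under 0.05, and ran from -0.28 to -0.03 when each array was left out.

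**Figure D4:**
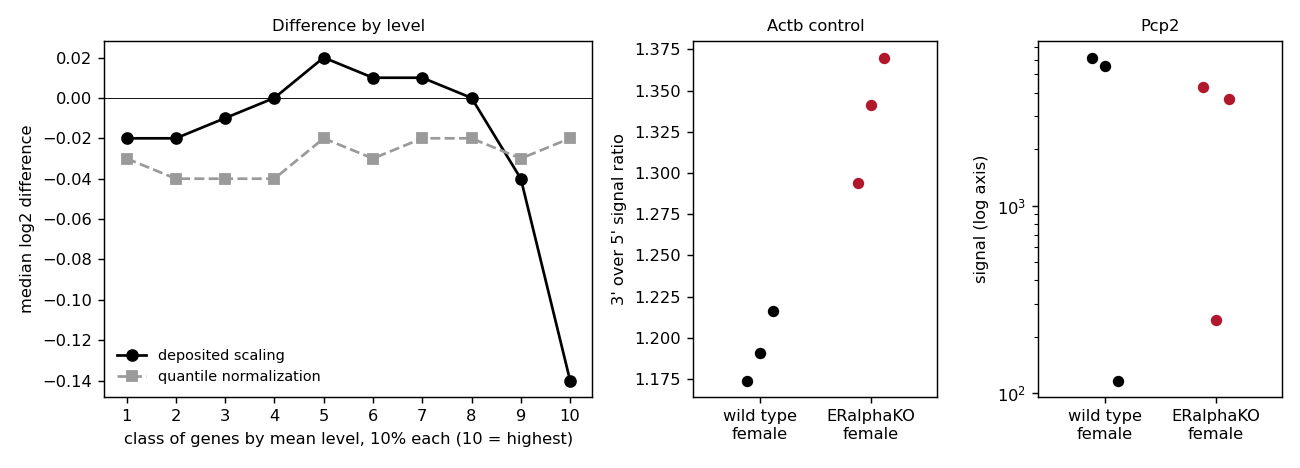
Left, median log2 difference between ERalphaKO-labelled and wild type females in 10 equal classes of genes by level, as deposited and after quantile normalization. Middle and right, the Actb control ratio and the Pcp2 signal (log axis) of each female array, 1 point per array. The highest class was at -0.14 as deposited, the Actb ratios of the groups did not overlap, and 1 array of each group had a low Pcp2 signal.

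The female differences were set beside those of ERalphaKO-labelled males against wild type males, which share no array with them. Of the 47 genes called in females, 46 had the same sign in males (97.9%), against 65.6% of all genes tested. 14 were also called in males, which is 29.8% of the female calls and 13.7% of the 102 male calls (0.78% of genes tested). For 33 of the 47 the male values also lay wholly apart in the same direction, where 23.6% of all genes lay wholly apart in males in either direction. The median size in males was 0.38, and 38 of the 47 were smaller in males than in females. The genes were chosen by the female call, so the female sizes are not independent of that choice.

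Erdr1 differed as much in males, by 3.75 ± 0.25, from 376, 294 and 266 to 4230, 5608 and 5093. Nnt was at -0.81 ± 0.10, from 1477, 1262 and 1406 to 726, 727 and 828. Fos was at 2.07 ± 0.17, from 816, 466 and 800 to 3210, 2693 and 3216. The knockout signals of Fos were thus higher in males than in females and the wild type signals were similar or lower. Dusp1 was at 1.48 ± 0.15, Hspa1b at 1.21 and Gm13306 at 1.83. All 14 Fos, Jun, Egr, Nr4a and Npas4 factors had a larger signed difference in males, with a median of 1.25 and 6 called. Cldn5 was at -0.21 ± 0.10 and Dok7 at 0.05 ± 0.17 in males, and neither passed there. Pygo1 was the exception in sign, at -0.21 ± 0.13 in males.

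**Figure D5:**
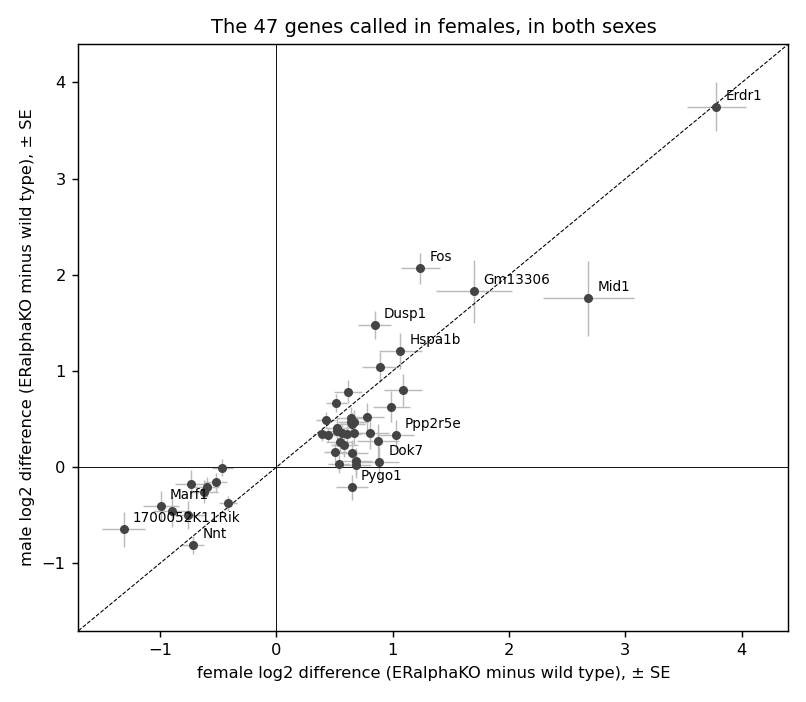
Log2 difference between ERalphaKO-labelled and wild type brains in females (x axis) and males (y axis), each ± SE, for the 47 genes called in females, with a dashed line where both are equal. 46 of 47 points have the same sign in both sexes, Fos and Dusp1 lie above the line and Pygo1 lies below 0 in males.

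The difference between the sexes was itself tested. 0 of 13072 genes passed in limma (0.0%), and 673 had an unadjusted p under 0.05 (5.15%). Fos differed by -0.83 ± 0.23 (female minus male difference, unadjusted p = 0.00262, adjusted p = 0.855) and Dusp1 by -0.64 ± 0.21 (adjusted p = 0.855). The smallest unadjusted p values belonged to Hmgxb4, Cetn1, Tmem129 and Pygo1. Hmgxb4, a gene with an HMG box, went from 423, 460 and 327 to 547, 506 and 574 in females and from 537, 345 and 490 to 273, 281 and 269 in males. Its groups lay apart in opposite directions, at a difference between sexes of 0.99 ± 0.19 (unadjusted p = 0.000101, limma adjusted p = 0.855). Cetn1, a centrin, was at 0.41 in females and -0.67 in males, and Tmem129, a ubiquitin ligase of the endoplasmic reticulum, at 0.37 and -0.27.

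ERalphaKO-labelled females were also compared directly with ERbetaKO-labelled females. Wild type arrays do not enter these differences but do enter the shared estimate of the spread. When only the groups compared were fitted, 3 genes passed. With all 18 arrays in the fit the results were as follows. 49 genes passed (0.375%), 32 higher and 17 lower in the ERalphaKO-labelled ones. Erdr1 was higher by 3.48 and Mid1 by 2.42, and Erdr1 read 623, 384 and 342 in ERbetaKO-labelled females, near wild type. 1700052K11Rik and Des were lower by fitted differences of -1.10 and -1.08, and Nnt by -0.55 (limma adjusted p = 0.0237). Hspa1b was higher by 0.92 (limma adjusted p = 0.0388).

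Fos was at 2591, 2081 and 2212 in ERbetaKO-labelled females, which overlapped the ERalphaKO-labelled values, and the difference between the knockouts was -0.17 (limma adjusted p = 0.655). For Dusp1 it was -0.03 (adjusted p = 0.944) and for Gm13306 0.35 (adjusted p = 0.647). Against the same wild type females, the ERbetaKO-labelled ones were at 1.41 for Fos, 0.87 for Dusp1 and 1.35 for Gm13306, beside 1.24, 0.84 and 1.70 in the ERalphaKO-labelled ones. These 2 comparisons share the wild type arrays, so their likeness is no independent support. Wdfy1 was at -1.41 beside -1.33 and Gabra2 at -1.03 beside -0.73.

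Further genes were named by the direct comparison. Tmem18, a nuclear membrane protein linked to body weight, had 806, 862 and 898 in wild type, 889, 1006 and 836 in ERalphaKO-labelled and 233, 155 and 178 in ERbetaKO-labelled females. Its difference between the knockouts was 1.96 (limma adjusted p = 3.03e-07), and the first 2 groups overlapped. Fgd6 and Sgsm3 were higher in the ERalphaKO-labelled females by 1.47 and 1.22, and Sf3b3, Col6a4 and Plekhg6 had differences of -1.47, -1.26 and -0.94. Sgsm3 was at 0.92 ± 0.21 against wild type (limma adjusted p = 0.0632) and the others did not pass there.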

How the data were processed

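The authors deposited 1 table of linear probe set intensities for the 18 arrays, made with MAS5 per the submitters' processing notes, whose version is not given in the sources used here. Every column had a 2% trimmed mean of 500, so the arrays were already scaled to a common target, and no detection calls are in the table used. The 64 control probe sets were left out, and 45037 remained. The platform annotation gave 1 symbol for 34945, several for 932 and none for 9160, and symbols were updated to RefSeq GRCm38.p6 through the entrez identifier for 34741 and through the symbol for 143, with 61 kept. Each of 18193 genes was represented by its probe set of highest mean over the 18 arrays, and the 13072 genes whose mean reached a log2 level of 7.58, the 40th percentile, were tested.

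The 25th percentile of all values, 63.63, was added to each intensity before log2, which understates changes of weak genes. limma 3.58.1 in R 4.3.3 fitted a mean for each of 6 groups to all 18 arrays, with 12 residual degrees of freedom and an intensity trend, and p-values were adjusted by Benjamini-Hochberg at 0.05 over all 13072 genes. "Called", "rose" and "fell" refer to that threshold, and ± is the SE unless stated. Single values were compared by two-sided exact permutation tests. Esr1 and Esr2 probe sets were fitted without the filter. The fit was tested on simulated data. Python 3.11.15 with matplotlib 3.10.9 drew the figures.

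Named genes were Esr1 and Esr2, the 12 largest rises and up to 12 largest falls among non-overlapping calls, up to 4 called members of each of 42 gene lists, every tested member of 6 of those lists (the Fos and Jun family, the Egr, Nr4a and Npas4 factors, estrogen-responsive genes, steroid receptors, neuropeptides and strain variant genes), the 4 smallest p of the difference between sexes (up to 6 each way had any passed), up to 5 calls each way against ERbetaKO, and called genes near Esr1. Genes named outside this are said to be so, except list members given beside a called one. The comparison and its lists were chosen with earlier results of these data known. Alternatives were other pseudocounts, scalings, filters and variance models, the mean of all probe sets, only the groups compared, a replicate block, marker scores or the Actb ratio as covariates, and each array left out in turn. The number of arrays limits the precision.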

Additional observations from a re-analysis of the deposited data

Results flagged for a closer look

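Of 10092 probe sets that name no single gene, 49 passed the limma threshold in the comparison of ERalphaKO-labelled with wild type females when all 45037 probe sets were tested (187 passed in all), 40 higher and 9 lower. The 7 with the largest differences, all above wild type on every array, are given because they lie outside the genes compared above. Probe set 1439200_x_at, with no annotated gene, had signals of 5.26, 34.6 and 14.3 in wild type and 1351, 773 and 1294 in ERalphaKO-labelled females, a log2 difference of 3.86, and 3.52 in males. Probe set 1419426_s_at, annotated to 9 genes, went from 15.96, 21.35 and 16.47 to 595, 799 and 334 (2.90), and was at 860, 1173 and 1025 in ERbetaKO-labelled females. Its wild type signals were under the pseudocount, so both sizes depend on it. 1447939_a_at, annotated to 6 genes, differed by 1.90 and 1447937_a_at, annotated to 9, by 1.89. Of those without a gene, 1435579_at differed by 1.77, 1430362_at by 1.75 and 1427122_at by 1.52. For 1447939_a_at, 1447937_a_at and 1435579_at the mean signals were 2557, 1075 and 1446 in ERalphaKO-labelled and 2499, 1040 and 1369 in ERbetaKO-labelled females, against 647, 242 and 378 in wild type.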

How the results depend on the processing

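The count of 47 calls stayed within 1.5 times with pseudocounts of 1 and at the median (42 and 45), no filter (48), a filter at the 60th percentile (49), no intensity trend (37) and the pituitary score as a covariate (62, where the calls lower rose from 11 to 17). Counts of all, higher and lower calls were 12, 9 and 3 with the Actb ratio in the model, 107, 78 and 29 with array weights, 194, 117 and 77 with the cerebellar score in the model, 29, 22 and 7 with the mean of all probe sets, 21, 15 and 6 with median scaling, 97, 59 and 38 with quantile normalization, 6, 5 and 1 with only the groups compared, and 4, 2 and 2 without the low Pcp2 arrays. Leaving out each of the 18 arrays in turn gave 1 to 56 calls, 1 to 41 higher and 0 to 15 lower. Among arrays outside the comparison, the count was 21 without ERalphaKO male replicate 1 and 26 without ERbetaKO male replicate 2, arrays that enter the shared spread. The causes of these shifts were not tested.

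With the replicate number as a block the counts were 25, 18 and 7. Same-numbered ERalphaKO and wild type females correlated at 0.10, -0.34 and -0.35 in their deviations. With 3 arrays a group, and some apart in Pcp2 signal, these values cannot tell whether the numbers pair the samples. Against ERbetaKO-labelled females the 49 calls became 6 with the block, 21 with the Actb ratio in the model, 120 with array weights, 131 with the cerebellar score, 3 with only the groups compared, 20 without the low Pcp2 arrays and 10 to 51 with each array left out. The test between sexes gave 1 call with no filter, 0 to 3 with each array left out (3 without wild type male replicate 2) and 0 under its other alternatives. Of 1546 refits of the 47 called genes, 970 kept the call, 575 lost it and 1 changed sign, Dok7 at -0.00 with the mean of its probe sets. The Esr2 difference was 0.49 with a pseudocount of 1. The pyruvate carboxylase ratio difference was -0.23, and -0.584 to 0.266 with each array left out, turning positive without wild type replicate 3. With 3 arrays a group, signal near background and the missing detection calls limit what low genes can show.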

Other observations

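Of 12 oligodendrocyte and myelin markers tested, 10 were above 0 in the ERalphaKO-labelled females with a median of 0.25, which ran from 0.11 to 0.43 when each array was left out, and 0 passed in limma while 1 had an unadjusted p under 0.05. Oligodendrocyte precursor markers were at a median of 0.18, with 7 of 9 above 0. Their mean log2 level overlapped, at 11.08, 11.44 and 11.07 for myelin markers in wild type against 11.44, 11.14 and 11.65. In males the same medians were -0.24 and -0.20. Choroid plexus and ependymal markers were at 0.12 in females (0.02 to 0.23 when each array was left out), with 9 of 10 above 0, and at -0.23 in males. Monoamine neuron markers were at 0.23 in females (0.01 to 0.46) and 0.22 in males.

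The medians of brain region markers were below 0, but each turned positive with some array left out. Purkinje cell markers were at -0.20 and cerebellar granule cell markers at -0.28, medians that ran from -0.90 to 0.09 and from -0.98 to 0.42 when each array was left out. Striatal markers were at -0.11 (-0.32 to 0.21), thalamic markers at -0.10 (-0.24 to 0.06), cortical and hippocampal excitatory markers at -0.15 (-0.30 to 0.01) and interneuron markers at -0.05 (-0.11 to 0.03). Pituitary hormone genes were at -0.47 (-0.69 to -0.10), and all 6 were below 0. The 2 blood cell genes tested were at -0.25 and meningeal fibroblast markers at -0.02.

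Among pathways, the medians were 0.10 for GABA-A receptor subunits, 0.05 for AMPA and NMDA receptor subunits, -0.05 for potassium channels, -0.07 for neurosteroid genes, 0.01 for nuclear receptor coregulators, -0.02 for cholesterol synthesis and for clock genes, -0.03 for the proteasome, -0.06 for interferon-induced genes, -0.04 for inhibitors of DNA binding and -0.12 for the 3 sex-linked check genes. In these 25 lists together, 0 of 290 genes passed in limma, 12 had an unadjusted p under 0.05 upward and 14 downward, and the median was -0.04. Glucocorticoid-responsive genes, 1 of these lists, were mixed. Of 15 tested, 0 passed in limma and the median was -0.06, or 0.07 after quantile normalization. Sgk1, Ddit4, Errfi1 and Tsc22d3 had an unadjusted p under 0.05 upward, at 0.72, 0.53, 0.49 and 0.44, and Mt1, a metallothionein, downward at -0.44, where 6.3% and 8.19% of all genes did. Sgk1, Ddit4, Tsc22d3 and Fkbp5 lay wholly above wild type, a position 9.25% of all genes took. They are named after their values were seen.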
